A study of Mus musculus with 17 samples.

Results

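MHC class II molecules carry peptides from engulfed proteins to the cell surface, where CD4+ T cells read them. This report follows 10 genes of that pathway in mouse liver: the class II chains H2-Aa, H2-Ab1 and H2-Eb1, the invariant chain Cd74, the peptide-loading subunits H2-DMa, H2-DMb1 and H2-DMb2, the loading modulators H2-Oa and H2-Ob, and the transactivator Ciita. They were taken by gene name from the authors' table of normalized counts, and all 10 were found among its 48440 rows. In miR-29 transgenic livers the 3 chains and Cd74 lay at 4.84 to 7.44 times lower levels than in wild-type livers of the same age, and Ciita was also lower. None of the 3 DM genes passed the test. No class II gene differed between 2-year-old and 2-month-old wild-type livers beyond the spread of the libraries, and the old livers differed widely from each other.

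Polyadenylated liver RNA was sequenced in 17 libraries. Of these, 6 came from miR-29 transgenic mice aged 2 months (TG_2mon). Another 5 came from wild-type B6 mice aged 2 years (WT_2year), and 6 from wild-type B6 mice aged 2 months (WT_2mon). B6 is a common inbred laboratory strain. For the transgenic mice, neither the background strain nor the promoter of the transgene is given in the sources used here. The study's title ties miR-29 to ageing, so the transgenic and the old livers were each set against the young wild type, and then against each other. In that last comparison age and genotype both differ. Library kit and sequencing core split the libraries into 2 batches. Batch A held 3 transgenic, 3 old and 4 young wild-type libraries and all 5 females, of which 1 was transgenic. Batch B held 3 transgenic, 2 old and 2 young wild-type libraries, all male. The labels do not say whether each library came from a separate animal, so p-values measure the spread between these libraries, which may be partly technical.

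Class II genes are expressed mainly by dendritic cells, B cells and macrophages, which in liver include the resident Kupffer cells. An alpha and a beta chain pair in the endoplasmic reticulum around the invariant chain, which fills the groove and guides the complex to the endosome. There H2-DM, made of H2-DMa with H2-DMb1 or H2-DMb2, removes the last invariant chain fragment and lets peptides bind, and H2-O holds H2-DM back. CIITA does not bind DNA itself. It is recruited by the factors that sit on the X box (RFX and CREB) and the Y box (NF-Y) of class II promoters. B6 mice make no H2-E alpha chain because their H2-Ea gene is defective, so H2-Eb1 has no partner chain in that strain. The H2-Ea pseudogene, H2-Ea-ps, was listed at 0 in all 17 libraries.

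Of the 10 genes, 8 lie in the class II region of chromosome 17 (mm10), between the start of H2-Oa at 34092340 and the end of H2-Eb1 at 34316674. Ciita is at chr16:10480059-10528418, and Cd74 lies outside both. RefSeq promoter sequences on GRCm38.p6 (250 bases before to 50 after the start site) were at hand for 7 of the 10 genes. H2-Ab1, Cd74 and Ciita were not among them. The stretch that CIITA's partner factors bind is shown for the genes that hold it, because the genes with it include both members that fell and members that did not pass the test. The first capitals (AAC) are the core of the X box and the last ones (GATTGG) the Y box. The middle ones mark the first TGANG found after AAC, a pattern like the part at which CREB-like factors bind. In H2-Eb1 and H2-DMb1 a second TGATG, left partly in lower case, overlaps the marked one. Which of them is bound was not tested.
H2-Aa, chr17:34287861-34287910, minus strand: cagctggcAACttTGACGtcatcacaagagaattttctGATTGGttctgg
H2-Eb1, chr17:34305770-34305818, plus strand: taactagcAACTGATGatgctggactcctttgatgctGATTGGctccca
H2-DMb1, chr17:34153091-34153140, plus strand: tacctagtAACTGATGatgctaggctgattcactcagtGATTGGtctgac
H2-DMb2, chr17:34145120-34145169, plus strand: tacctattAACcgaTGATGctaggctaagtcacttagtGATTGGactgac
H2-Oa, chr17:34092297-34092346, plus strand: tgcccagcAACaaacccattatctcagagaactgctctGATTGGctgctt
H2-Ob, chr17:34238812-34238858, plus strand: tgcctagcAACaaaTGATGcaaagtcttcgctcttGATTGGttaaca

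The distance from the start of AAC to the start of GATTGG was 27 to 30 bases in these 6 promoters, and GATTGG began 44 to 91 bases before the start site. H2-Oa held AAC and GATTGG without TGANG between them. The 2 listed H2-DMa promoters held no AAC at that distance from GATTGG on the strand of the gene. The members were read on the strand of the gene. Searched on both strands of all 32851 promoters of the table, GATTGG was present in 16.1%. AAC followed by GATTGG at 26 to 34 bases was present in 1.84%, and the same with TGANG starting 3 to 9 bases after the start of AAC in 0.1%. These distances were set after the members' promoters had been read, so the shares are a description. A match is not evidence of binding in these livers.

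The seed of miR-29 is shared by its 3 mature forms and is shown here because the transgene carries this microRNA. Capitals mark bases 2 to 8.
mmu-miR-29a-3p: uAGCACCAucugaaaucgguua
mmu-miR-29b-3p: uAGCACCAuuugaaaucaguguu
mmu-miR-29c-3p: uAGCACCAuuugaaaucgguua

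The matching 7 bases, TGGTGCT, were looked for in the longest annotated 3′ UTR of each gene (GENCODE M21, GRCm38). Of the 10 genes, 9 held none in 3′ UTRs of 228 to 1862 bases. Ciita held 1 match, starting at base 2310 of a 3′ UTR of 2676 bases: gcctctgtgtTGGTGCTgggaagagaa. Among all 20848 genes with a 3′ UTR of at least 30 bases, 13.2% held a match. A match is a description of the sequence, and polyA libraries do not measure mature miR-29.

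Depth cannot be read from the deposited values, which are the authors' normalized counts and sum to 28077001 to 44543936 per library. Between 17.8% and 27.5% of each library's sum fell on its 10 highest genes, and no pair of libraries was identical. One old library, WT_2year replicate 5, stood apart. It was the highest of all 17 libraries for 10 of 10 class II genes, and its summed markers of several immune cell types were also the highest of the old libraries. They reached 905 for B cells (188 to 420 in the other old libraries), 995 for dendritic cells (302 to 412), 51957 for Kupffer cells (14435 to 23449) and 791 for T and NK cells (126 to 338). WT_2year replicate 4 was the lowest old library for 7 genes. TG_2mon replicate 3, the female transgenic library, was the lowest of all 17 libraries for 8 genes.

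Levels per kilobase of the longest annotated transcript put the members in order. In transgenic livers Cd74 averaged 520 ± 223 normalized counts per kilobase, H2-Ab1 226 ± 166, H2-Aa 181 ± 83.5 and H2-Eb1 102 ± 54.8 (SD, n = 6). In young wild-type livers Cd74 averaged 2283 ± 352, H2-Aa 1150 ± 199, H2-Ab1 1094 ± 408 and H2-Eb1 648 ± 99.7 per kilobase (SD, n = 6). H2-Aa and H2-Ab1 lay within their spread of each other in both groups. The loading genes came next: H2-DMb1 had 89.9 ± 65.7 per kilobase in transgenic livers and 112 ± 38.6 in young wild-type livers, and H2-DMa had 40.5 ± 25.5 in transgenic livers and 66.9 ± 25.2 in young wild-type livers. H2-DMb2, H2-Oa, H2-Ob and Ciita were the lowest, each at 16.9 per kilobase or less in both of these groups.

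**Figure D1:**
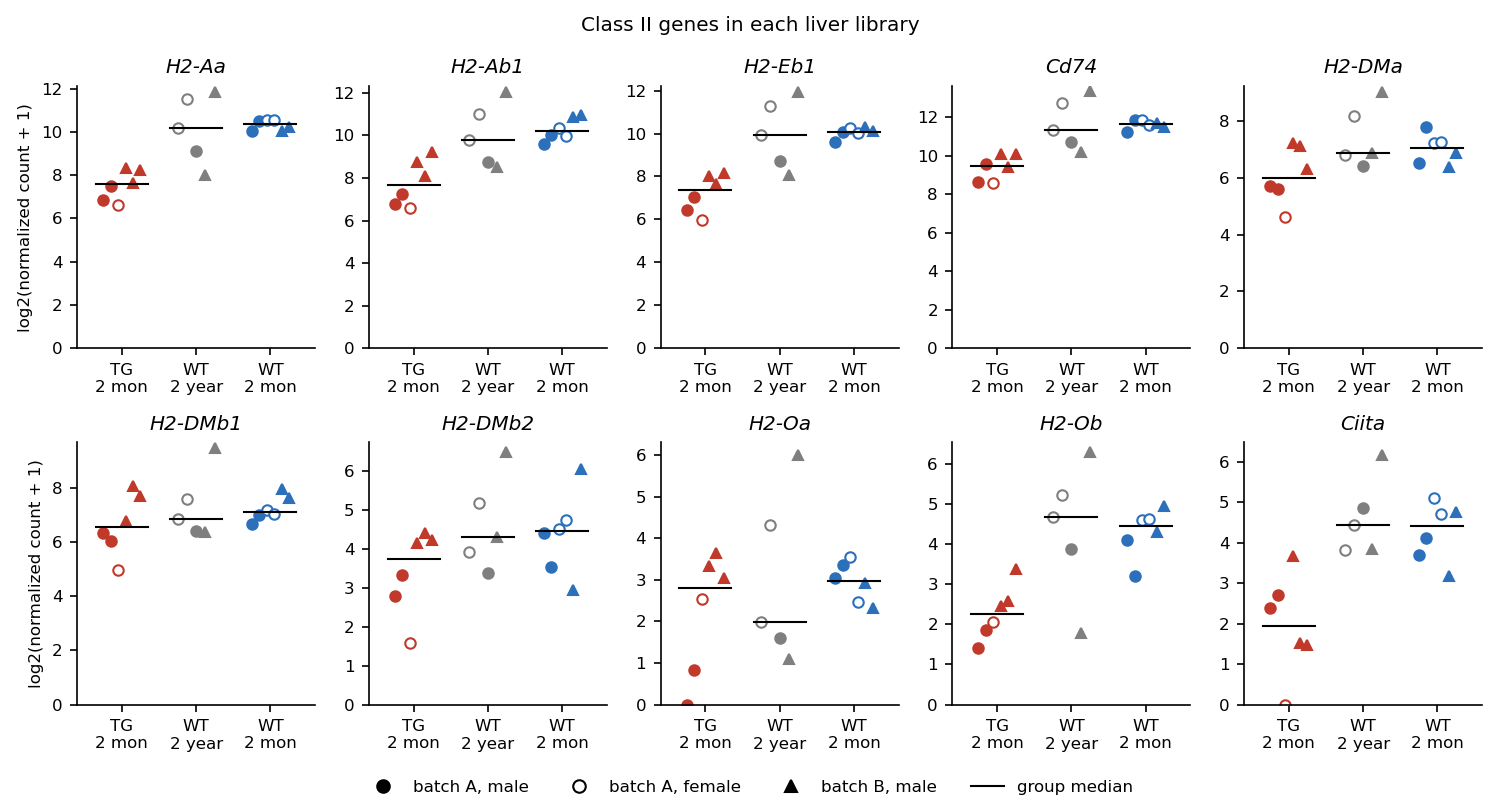
Each panel shows 1 class II gene as log2(normalized count + 1) in 6 TG_2mon, 5 WT_2year and 6 WT_2mon libraries; points are libraries (circles batch A, triangles batch B, open symbols female) and bars are group medians. For H2-Aa, H2-Ab1, H2-Eb1 and Cd74 every transgenic library lies below every young wild-type library, while the DM genes overlap.

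In transgenic livers the class II chains were low in every library. H2-Aa, the I-A alpha chain, ran from 96.6 through a median of 191 to 325 normalized counts in TG_2mon libraries, and from 1044 through 1324 to 1519 in WT_2mon libraries. The highest transgenic library thus lay below the lowest young wild-type library. H2-Aa fell by 2.77 on the log2 scale (SE 0.52, 6.82 times lower, limma adjusted p = 0.00349). H2-Eb1, the I-E beta chain, ran from 62.3 through 166 to 281 in TG_2mon libraries and from 784 through 1091 to 1249 in WT_2mon libraries. Its groups did not overlap either, and it fell by 2.90 (SE 0.52, 7.44 times lower, limma adjusted p = 0.00262). H2-Ab1, the I-A beta chain, ran from 94.3 through 212 to 595 in TG_2mon libraries and from 777 through 1167 to 1998 in WT_2mon libraries. It too showed no overlap and fell by 2.65 (SE 0.48, 6.29 times lower, limma adjusted p = 0.00272).

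Cd74, whose product escorts the chains, behaved like them. It ran from 379 through 718 to 1103 normalized counts in TG_2mon libraries and from 2445 through 3250 to 3784 in WT_2mon libraries. No transgenic library reached the young wild-type range. Cd74 fell by 2.27 on the log2 scale (SE 0.44, 4.84 times lower, limma adjusted p = 0.00471). These 4 genes were the ones whose transgenic libraries all lay below all young wild-type libraries, 4 of 10 members. Over all 14588 genes tested, 1.84% showed that separation.

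The peptide-loading genes did not pass the test. H2-DMa, the DM alpha chain, had 50.7, 47.7 and 23.7 normalized counts in the batch A transgenic libraries and 148, 138 and 78.7 in the batch B ones. WT_2mon libraries had 89.9, 219, 148 and 151 in batch A and 81.6 and 115 in batch B. The groups were apart in batch A and overlapped in batch B. H2-DMa had a log2 fold change of -1.0 with an SE of 0.47 (limma adjusted p = 0.231), which was -1.87 ± 0.49 in batch A alone and 0.27 ± 0.62 in batch B alone. The difference between the batches, 2.14 ± 0.83, missed the threshold after adjustment over all genes (limma adjusted p = 0.232).

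H2-DMb1, a DM beta chain, had 79.3, 64.1 and 30.4 normalized counts in the batch A transgenic libraries and 108, 270 and 206 in the batch B ones. WT_2mon libraries had 101, 128, 143 and 131 in batch A and 249 and 195 in batch B. Here too the transgenic libraries were lower in batch A and mixed with the wild type in batch B. It had a log2 fold change of -0.80, with an SE of 0.44 and a limma adjusted p of 0.327. H2-DMb2, the other beta chain, ran from 2.00 through 13.0 to 20.4 in TG_2mon libraries and from 6.77 through 21.0 to 65.7 in WT_2mon libraries, at a log2 fold change of -1.11, with an SE of 0.58 and a limma adjusted p of 0.292. The coding sequences of H2-DMb1 and H2-DMb2 are identical at 95.9% of 783 aligned bases, so how reads were split between them is uncertain.

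H2-Ob, the beta chain of the modulator H2-O, is made chiefly by B cells and some dendritic cells. It ran from 1.66 through 3.84 to 9.49 normalized counts in TG_2mon libraries and from 8.26 through 20.9 to 29.7 in WT_2mon libraries. All but 1 transgenic library lay below the young wild-type range. Its log2 fold change was -1.98 ± 0.59 (SE), with a limma adjusted p of 0.0537, just outside the threshold. Without WT_2year replicate 4 it passed, at -2.09 ± 0.37 and an adjusted p of 0.00211, and in the authors' deposited table it passed at -2.26 ± 0.59 with an adjusted p of 0.00236. H2-Oa, the H2-O alpha chain, had a mean of 9.65 over the 17 libraries, under the minimum of 10, and was not tested. It ran from 0 through 6.04 to 11.4 in TG_2mon libraries and from 3.99 through 6.88 to 10.7 in WT_2mon libraries, so the groups overlapped.

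Ciita, the transactivator of class II genes, had 4.20, 5.50, 0, 11.7, 1.86 and 1.78 normalized counts in TG_2mon replicates 1 to 6. The WT_2mon replicates 1 to 6 had 11.9, 16.4, 33.3, 25.3, 8.05 and 26.03. Of the 6 transgenic libraries, 5 lay below the young wild-type range. Ciita fell by 2.39 on the log2 scale (SE 0.61, 5.22 times lower, limma adjusted p = 0.0258). This call was lost when any 1 of TG_2mon replicates 3 or 5 or WT_2mon replicates 3, 4 or 6 was left out, with adjusted p-values of 0.0534 to 0.0882.

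In all, 5 of the 9 members tested fell, 0 rose, and 7 had an unadjusted limma p under 0.05. Over all genes tested, 3.83% fell and 2.89% rose, and with libraries scaled to equal totals outside their 10 highest genes 2.62% fell and 3.97% rose, with the same 5 members lower. The median log2 fold change was -2.27 over the 9 members and 0.01 over all genes. The direction held in each batch for the chains and Cd74, with log2 fold changes of -3.42 to -2.67 in batch A alone and -2.26 to -1.75 in batch B alone. In batch A the 4 genes and H2-Ob passed the test (background 2.61% of genes lower). Every transgenic library there lay below every young wild-type library for 9 of 10 members (background 9.01%). In batch B, with 3 against 2 libraries, 0 members passed (background 0.975%), although H2-Ab1 and H2-Eb1 had an unadjusted limma p under 0.05. There 5 of 10 members were separate (background 22.4%).

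**Figure D2:**
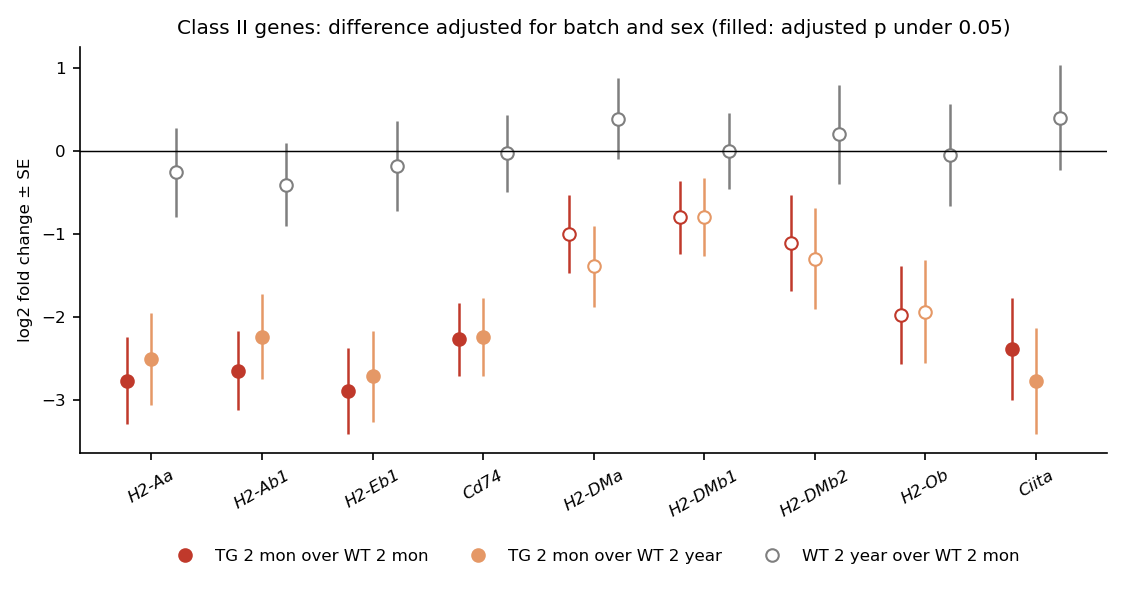
Log2 fold change with its SE (y axis) for the 9 tested class II genes (x axis) in the 3 comparisons, adjusted for batch and sex; filled points had a limma adjusted p under 0.05. The chains, Cd74 and Ciita lie between -2.90 and -2.24 in both comparisons of the transgenic livers, the DM genes lie nearer to 0, and the age differences lie between -0.41 and 0.40.

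Within single libraries, H2-DMa, H2-DMb1 and Cd74 stood higher against H2-Aa in transgenic livers. H2-DMa amounted to 24.6% to 69.2% of the H2-Aa level in transgenic libraries and to 7.69% to 15.0% in young wild-type libraries, with no overlap. H2-DMb1 amounted to 31.4% to 136% of H2-Aa in transgenic libraries and to 8.60% to 23.4% in young wild-type libraries, again with no overlap. Cd74 stood at 3.32 to 4.12 times H2-Aa in transgenic libraries and at 2.06 to 3.18 times in young wild-type libraries. H2-DMb2 amounted to 2.07% to 10.2% of H2-Aa in transgenic libraries and to 0.638% to 5.53% in young wild-type libraries, and these overlapped. A ratio within a library does not depend on its scaling factor. H2-Aa itself separated the 2 groups, so a gene that changed less than H2-Aa tends to stand higher against it. These separations thus largely restate the fall of H2-Aa. How many of all genes separate in the same way was not counted.

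The first 3 of these ratios were chosen after the values had been seen. Compared within batch and sex, the ratio of H2-DMa to H2-Aa was 3.56 times higher in transgenic libraries, that of H2-DMb1 to H2-Aa 4 times higher and that of Cd74 to H2-Aa 1.45 times higher. Because they were chosen for this separation, they are given as a description, with no test. For H2-DMa the difference in the log2 ratio was 1.48 in batch A alone and 2.32 in batch B alone. Old wild-type libraries spanned 9.43% to 45.7% for H2-DMa over H2-Aa. The highest value there came from WT_2year replicate 4, the old library with the lowest chain levels.

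**Figure D3:**
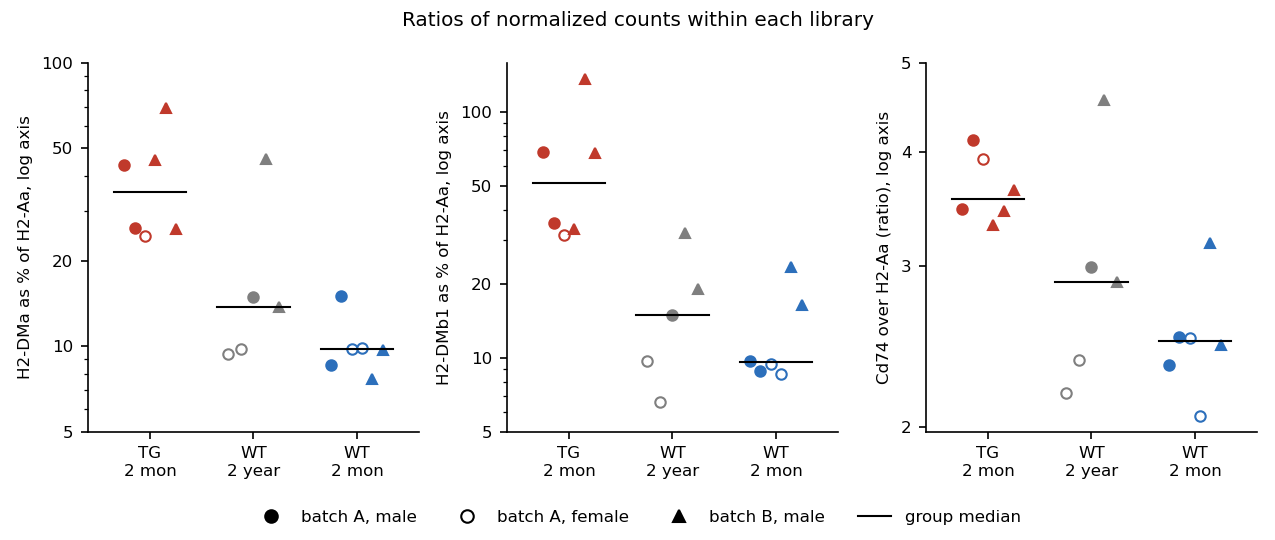
Ratios of normalized counts within each library on log axes, for 6 TG_2mon, 5 WT_2year and 6 WT_2mon libraries; bars are group medians, circles batch A, triangles batch B, open symbols female. All 6 transgenic libraries lie above all 6 young wild-type libraries in each panel, and 1 old library reaches the transgenic range. H2-Aa, the shared denominator, is itself lower in all 6 transgenic libraries than in all 6 young wild-type libraries.

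Set against H2-Aa, H2-Eb1 overlapped between transgenic and young wild-type libraries, and H2-Ab1 overlapped between them within each batch. H2-Eb1 stood at 0.645 to 0.9998 times H2-Aa in transgenic libraries and at 0.690 to 1.18 times in young wild-type libraries. H2-Ab1 over H2-Aa differed by batch more than by group, with 0.820 to 0.976 in the batch A transgenic libraries and 0.655 to 0.858 in the batch A young wild-type libraries, but 1.31 to 1.96 and 1.68 to 1.74 in the same groups of batch B. The 2 batches differed in both library kit and sequencing core, and all females were in batch A. These cannot be told apart here, and their part in this ratio was not tested.

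With age the class II genes showed no common direction in the limma fit. The 9 tested members had log2 fold changes of -0.41 (H2-Ab1) to 0.40 (Ciita), a median of -0.03 and limma adjusted p-values of 0.791 to 0.998. None passed, and 0 had an unadjusted limma p under 0.05. The authors' deposited table also called 0 of the 10 genes with age (background 0.702% of genes lower and 1.07% higher). Its log2 fold changes ran from -0.01 (H2-Ab1) to 0.88 (H2-Oa), above 0 for all but H2-Ab1. Over all genes tested only 0.0480% fell and 0.0960% rose with age in the limma fit, so few genes of any kind passed here.

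The old livers spread more widely than the young ones in the chains and Cd74. H2-Aa was at 1172, 2914, 563, 253 and 3718 normalized counts in WT_2year replicates 1 to 5, a range of 14.7 times, while the 6 young wild-type libraries lay between 1044 and 1519. Old livers thus fell both above and below the young range, and the mean of 1724 ± 1517 in old livers and 1297 ± 225 in young wild-type livers hides this (SD, n = 5 and n = 6). Cd74 showed the same picture, with 2553, 6902, 1685, 1155 and 10716 in the old libraries. The highest old library stood 9.28 to 14.7 times above the lowest for these 4 genes, against 1.46 to 2.57 times in young wild-type libraries. The spread was not wider for every member. Ciita spanned 5.44 times in old libraries (13.1 to 71.1) and 4.13 times in young wild-type libraries (8.05 to 33.3), and H2-DMb2 spanned 9.50 times in old libraries and 9.70 times in young wild-type libraries. The median of the members was -0.45 without WT_2year replicate 5 and 0.47 without WT_2year replicate 4, and 0 members passed in either case.

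**Figure D4:**
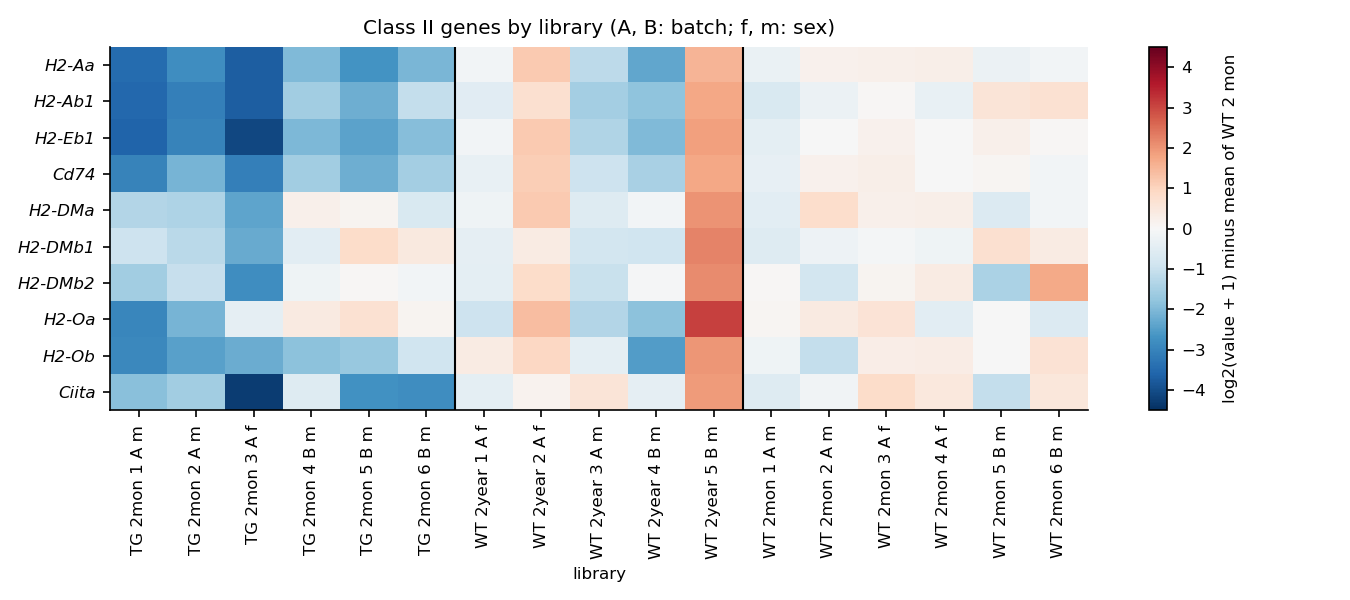
Each cell is log2(value + 1) of 1 class II gene (row) in 1 library (column) minus the mean of the 6 WT_2mon libraries; letters after the library give batch and sex. The 6 transgenic columns are below the WT_2mon mean for the chains, Cd74 and H2-Ob, and the 5 old columns range from below the mean (WT_2year replicate 4) to above it in every row (WT_2year replicate 5).

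Set against the old wild type, transgenic livers were also low in class II. Of the 9 tested members 5 fell and 0 rose, with 1.84% of all genes lower and 0.713% higher. The 5 were H2-Eb1 (-2.72 ± 0.55, SE), H2-Aa (-2.51 ± 0.55), Cd74 (-2.24 ± 0.47), H2-Ab1 (-2.24 ± 0.51) and Ciita (-2.78 ± 0.64), with limma adjusted p-values of 0.0139 to 0.0279. Cd74 and Ciita were the 2 of 10 members whose transgenic libraries all lay below all old libraries (background 1.14%). This comparison shares its transgenic libraries with the one against young wild type. Its calls depend on the old library that stands apart: without WT_2year replicate 5, 0 members passed, and H2-Eb1 was at -2.20 ± 0.52 with an adjusted p of 0.0575.

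No difference of a member's effect between batches or sexes passed the test, although the transgene terms all pointed one way. The interaction tests called 0 of 9 members for the transgene by batch (background 0.50%), the transgene by sex (1.30%), age by batch (0.0206%) and age by sex (0.0137%). At an unadjusted limma p under 0.05 there were 1 for the transgene by batch (H2-DMa), 1 for the transgene by sex (Ciita), 0 for age by batch and 0 for age by sex. All 9 transgene by batch terms were above 0 (0.41 to 2.14, median 1.05, against 0.01 over all genes), meaning a smaller loss in batch B. All 9 transgene by sex terms were also above 0 (0.66 to 3.33, median 1.52), meaning a smaller loss in males, with 1 transgenic female behind them. That library, TG_2mon replicate 3, is in batch A, so it enters the transgene by batch terms too. The members move together from library to library, so these are not 9 separate observations.

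None of the genes for factors that act at class II promoters passed the test. There were 10 such genes, among them the RFX subunits, the NF-Y subunits, Creb1 and Crebbp. Against young wild type 0 passed (background 3.83% of genes lower and 2.89% higher), with a median log2 fold change of 0.15. Nfyb, an NF-Y subunit, had the smallest p, with 659 ± 137 normalized counts in transgenic livers and 854 ± 85.7 in young wild-type livers (SD, n = 6 each; log2 fold change -0.42 ± 0.16, limma adjusted p = 0.119). Among 15 tested inducers and repressors of class II, such as interferon pathway genes, 1 fell (background 3.83% of genes lower). It was Irf2, an interferon regulatory factor, with 875 ± 385 in transgenic livers and 1524 ± 455 in young wild-type livers (SD, n = 6 each; -0.98 ± 0.17, limma adjusted p = 0.00189). Irf2 did not pass against old wild type (-0.62 ± 0.18, limma adjusted p = 0.0761).

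The lysosomal genes of antigen processing gave 0 calls of 12 (median 0.12, background 3.83% of genes lower and 2.89% higher). Ctsl, a protease that cleaves the invariant chain, had the smallest p, at 1.15 ± 0.41 (limma adjusted p = 0.11). The 4 tested genes of class II turnover gave 0 calls, led by March8, a ubiquitin ligase, at -0.64 ± 0.25 (limma adjusted p = 0.133). The 7 tested T cell costimulation genes also gave 0, led by Icosl, the ligand of ICOS, at 1.51 ± 0.48 (limma adjusted p = 0.069). With age, each of these lists gave 0 calls too (background 0.0480% of genes lower and 0.0960% higher). At these shares, 0 calls do not set lists this short apart from all genes.

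Whether cells that make class II were fewer, or made less per cell, cannot be told apart in bulk liver. Markers of such cells are therefore given beside the result, and their part in it was not tested. The summed level of 12 B cell markers ran from 50.6 through 98.7 to 250 normalized counts in TG_2mon libraries, from 188 through 302 to 905 in WT_2year libraries and from 97.5 through 207 to 371 in WT_2mon libraries. The groups overlapped. Within batch A the sums were 50.6 to 73.6 in transgenic libraries and 97.5 to 224.5 in young wild-type libraries, without overlap, and in batch B they were 123.9 to 250 in transgenic libraries and 190.3 to 371 in young wild-type libraries. Of 7 tested B cell markers 1 fell against young wild type and 0 rose (median -1.44, background 3.83% of genes lower and 2.89% higher). It was Ighd, the IgD heavy chain, with 1.77 ± 2.00 in transgenic livers and 12.8 ± 6.19 in young wild-type livers (SD, n = 6 each, log2 fold change -2.38 ± 0.66, limma adjusted p = 0.0395). Against old wild type Ighd (-3.63 ± 0.70) and Cd79a, a subunit of the B cell receptor (-2.67 ± 0.66), fell, with limma adjusted p-values of 0.00975 and 0.0381.

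The 12 dendritic cell markers summed to 297 through 378 to 425 normalized counts in TG_2mon libraries, to 302 through 405 to 995 in WT_2year libraries and to 368 through 467 to 527 in WT_2mon libraries. Within batch A the sums were 297 to 425 in transgenic and 368 to 527 in young wild-type libraries, with overlap. In batch B, with 3 against 2 libraries, they were 349 to 418 and 460 to 474, without overlap. None of the 10 tested passed against young wild type (median -0.65, background 3.83% of genes lower and 2.89% higher). Ccr7, a receptor of migrating dendritic cells, was nearest at -2.22 ± 0.67 (limma adjusted p = 0.0572). Siglech, a marker of plasmacytoid dendritic cells, ran from 0 to 4.26 in transgenic libraries, 3 of which were at 0, and from 11.4 to 23.5 in young wild-type libraries. Clec9a, a marker of cross-presenting dendritic cells, ran from 20.8 to 156 in transgenic libraries and from 27.6 to 133 in young wild-type libraries. Of the 10 tested dendritic cell markers, 9 had a log2 fold change below 0 and 1, Clec9a (0.12 ± 0.42), lay above 0.

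None of 12 Kupffer cell markers fell. They summed to 10919 through 28583 to 81787 in TG_2mon libraries, to 14435 through 20140 to 51957 in WT_2year libraries and to 14134 through 18293 to 26062 in WT_2mon libraries. Within batch A the sums were 10919 to 21430 in transgenic and 14134 to 20449 in young wild-type libraries, with overlap. In batch B they were 35736 to 81787 and 16622 to 26062, without overlap. Of these markers 1 rose and 0 fell against young wild type (background 2.89% of genes higher and 3.83% lower). It was Marco, a scavenger receptor, at 3.97 ± 0.41 (limma adjusted p = 3.85e-05). Clec4f, the lectin that marks resident Kupffer cells, ran from 1251 to 13803 in transgenic libraries and from 2498 to 8641 in young wild-type libraries. Monocyte and macrophage markers gave 2 rises of 10 (background 2.89% of genes higher). They were Chil3 (5.51 ± 0.85) and Itgam (1.97 ± 0.51), with limma adjusted p-values of 0.000792 and 0.0284.

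Neutrophil markers, which belong to cells that carry little class II, rose in 9 of 10 cases (background 2.89% of genes higher), with a median log2 fold change of 5.10. Mmp8 was at 6.03 ± 0.90 (limma adjusted p = 0.00061), and S100a8, S100a9 and Cxcr2 at 5.14 ± 0.82, 4.92 ± 0.81 and 3.72 ± 0.62. Their summed level ran from 450 to 48419 in transgenic libraries and from 30.1 to 498 in young wild-type libraries. The other lists moved in few members (background 3.83% of genes lower and 2.89% higher). T and NK cell markers gave 0 calls of 9 (led by Cd8a at -1.21 ± 0.71, limma adjusted p = 0.359), and stellate cell markers 0 of 8 (led by Ngfr at -0.86 ± 0.53, limma adjusted p = 0.382). Stab2 of the sinusoidal endothelium rose (1.44 ± 0.27, limma adjusted p = 0.00406). Spp1 of the bile duct list fell (-1.21 ± 0.33, limma adjusted p = 0.0372), as did Serpina1c of the hepatocyte list (-1.80 ± 0.42, limma adjusted p = 0.0145). Hepatocyte markers summed to 1730860 to 5497430 in transgenic libraries and to 2751910 to 4388880 in young wild-type libraries, and they were present in all 17 libraries, as the labelled tissue requires. Against old wild type, Marco (3.64 ± 0.43), Chil3 (3.78 ± 0.90) and Mmp8 (3.96 ± 0.95) rose, with limma adjusted p-values of 0.000305 to 0.0343. Apart from the B cell markers no other list had a call there (background 1.84% of genes lower and 0.713% higher). With age 0 markers of any list passed (background 0.0480% of genes lower and 0.0960% higher). Trem2, a macrophage receptor, was nearest at 1.83 ± 0.43 (limma adjusted p = 0.125). The part of the neutrophil and macrophage changes in the class II result was not tested.

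**Figure D5:**
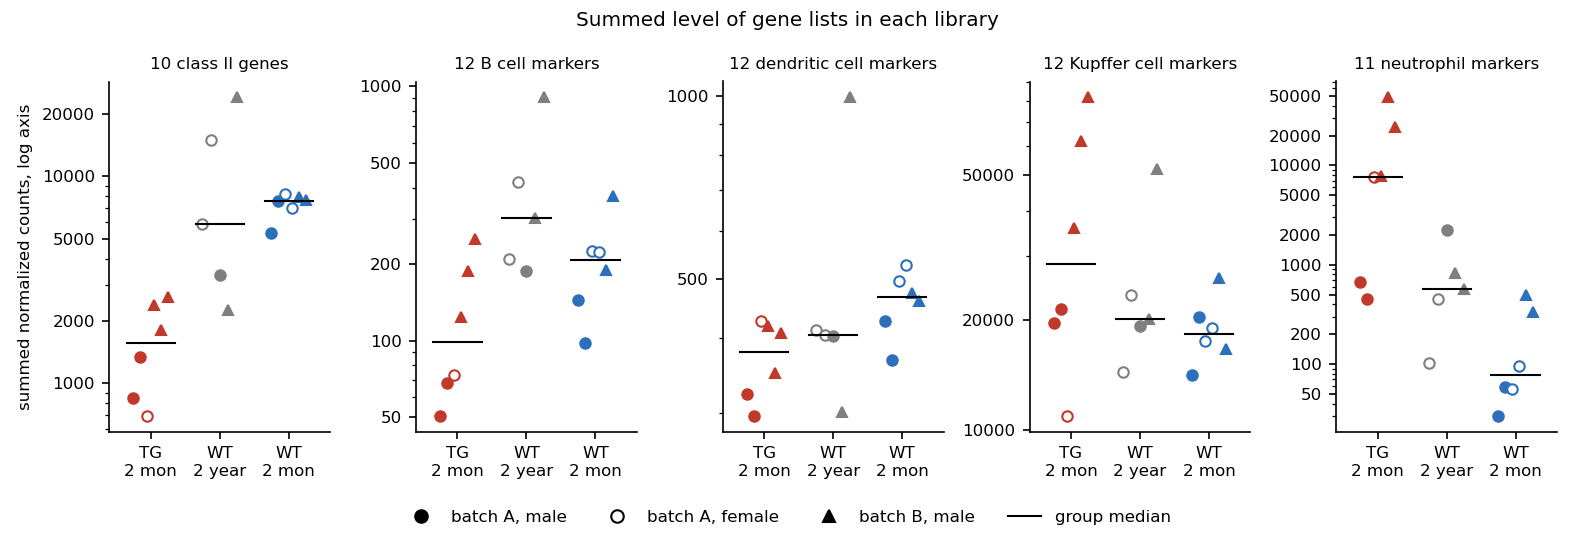
Summed normalized counts (log axis) of the 10 class II genes and of marker lists for B cells, dendritic cells, Kupffer cells and neutrophils in each library; bars are group medians. Class II sums run from 696 to 2604 in transgenic libraries and from 5296 to 8190 in young wild-type libraries with no overlap. B cell, dendritic cell and Kupffer cell sums overlap over both batches. Within batch A the transgenic B cell sums lie below the young wild-type ones without overlap. Within batch B, with 3 against 2 libraries, the transgenic dendritic cell sums lie below and the Kupffer cell sums above, without overlap. Transgenic neutrophil sums lie above within each batch. The part of these markers in the class II result was not tested.

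The class II genes moved together from library to library, beyond the groups. After group, batch and sex were taken out, the residuals of the chains and Cd74 correlated with their own mean at r = 0.988 to 0.996 over the 17 libraries. For the members outside that mean, r with it was 0.849 for H2-DMb1, 0.844 for H2-Ob, 0.773 for H2-DMa, 0.623 for H2-DMb2 and 0.551 for Ciita. Ciita and H2-DMb2 thus had the lowest values among the 9 tested members, and the difference between them was not tested. Across the 36 pairs of tested members r ran from 0.42 to 0.99 with a median of 0.76. These are descriptions over libraries that share batches and sexes, and WT_2year replicate 5 is high in every member.

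The genes outside the pathway most like the chains and Cd74 by the same residuals were Ly6a (r = 0.911), Lipc (0.883), Tpm2 (0.881), Cmtm3 (0.878) and Isg15 (0.864), over 17 libraries. Ly6a encodes the surface protein Sca-1, Lipc hepatic lipase, and Isg15 an interferon-induced ubiquitin-like protein. Of these, Lipc also fell in transgenic livers, to 1806 ± 375 normalized counts, against 5669 ± 1831 in young wild-type livers (SD, n = 6 each; -1.47 ± 0.35, limma adjusted p = 0.0192). The others did not pass, with log2 fold changes of -1.16 ± 0.47 for Tpm2 (limma adjusted p = 0.155), -0.82 ± 0.50 for Ly6a (0.377), 0.35 ± 0.26 for Cmtm3 (0.494) and 0.13 ± 0.79 for Isg15 (0.948).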

How the data were processed

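The submitters' processing notes list STAR 2.5.3a, Salmon 0.6.0, DESeq2 and mm10 without saying what each did. The main file is the authors' signal table (normalized counts) of 48440 genes in 17 libraries. Whole reads could not be recovered from it, so depth is unknown and no counting intervals were computed. Per the file headers, the authors' 2 deposited comparison tables hold a log2 fold change with its SE, a test score and p-values; they served as an alternative.

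Each comparison was fitted with limma 3.58.1 in R 4.3.3 on log2(value + 1) of the 14588 genes with a mean of at least 10 over the 17 libraries. The terms were group, batch and sex, with eBayes and a mean-variance trend, checked on simulated data. Calls needed a p under 0.05 after Benjamini-Hochberg adjustment over all genes (two-sided), and "rose" and "fell" are used of called genes. Fold changes on this scale understate changes of low genes. Each batch was also fitted by itself. Ratios were compared within batch and sex, as a description.

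The members and lists were chosen with earlier results of these data known. All 10 members are named. From each list, for transgenic against young wild type, the called genes are named, up to the 4 with the smallest p, or else the 1 with the smallest p, and the 5 non-members most like the chains and Cd74 by residual correlation. One listed marker is not reported here. The markers H2-Ea-ps, Siglech, Clec9a, Clec4f and Trem2, and the comparisons of list genes with old wild type, were named after their values were seen. Of the listed symbols, H2-Ea, Marchf1, Marchf8 and Tf matched no row. Identifiers matched the reference annotation for 48058 genes, which also gave the names of 27 genes listed with a date in place of a symbol, March8 among them. Sequence work used Python 3.11.15 with Biopython 1.88. Alternatives covered the pseudocount, the filter, scaling, covariates, batches, sexes, library weights and each library left out.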

Additional observations from a re-analysis of the deposited data

Results flagged for a closer look

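Of 30 groups of class II values checked for a library far from the rest, 4 were marked by the gap to the next library. Chance marks about 5% of groups if values are normally distributed and groups independent. These are unlogged counts of members that move together, and WT_2year replicate 5 recurs among the marks. The 5% is therefore no measure of an excess here. WT_2year replicate 5 stood apart for H2-DMb1 at 706.6 normalized counts (next 193.1), for H2-Oa at 63.35 (next 18.93) and for Ciita at 71.06 (next 27.93). WT_2mon replicate 6 stood apart for H2-DMb2 at 65.66 (next 25.75).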

How the results depend on the processing

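Against young wild type, the count of members that fell was 5, and it was 4 to 6 when each library was left out in turn and 0 in batch B alone; the chains and Cd74 passed under 32 of 33 alternatives each, the exception being batch B alone. Ciita stayed below 0 under all 32 alternatives that could be fitted but passed under 23. H2-Ob passed under 7 of 32. Against old wild type the count of 5 was 3 without batch and sex terms, and 0 in batch B alone, in males alone and with only the 2 groups fitted. It ran from 0 to 6 over the libraries left out, with 0 without WT_2year replicate 5, 1 without TG_2mon replicate 3, and 3 without WT_2year replicate 2 or TG_2mon replicate 5. With age 0 members passed under any alternative run. Replicate numbers gave no clear pairing of the libraries. Same-number correlations of deviations ran from -0.22 to 0.59 between transgenic and young wild type, with 2 of 6 best with their own number. This was 3 of 5 between transgenic and old (0.02 to 0.53) and 1 of 5 between old and young wild type (-0.23 to 0.59). The deviations were not adjusted for batch or sex, so they cannot settle whether libraries were paired. With a replicate block, 4 members fell in each comparison of the transgenic livers, Ciita no longer passing (adjusted p = 0.101 against young wild type), 0 differed with age, and 247 genes in place of 372 passed against old wild type. Scaling to equal totals outside the 10 highest genes moved the median of all genes to 0.16, against 0.01 as reported, and changed the split of calls to 2.62% lower and 3.97% higher, with the same 5 members called. Over all genes, the 979 calls against young wild type were 421 without batch and sex terms, 623 in batch A alone and 323 in batch B alone. The 372 against old wild type ran from 48 (batch B alone) to 733 (library weights), with 156 without WT_2year replicate 5, and the 21 with age from 0 (batch B alone) to 60 (library weights). The authors' deposited table called 2211 genes against young wild type and 280 with age. Each ratio to H2-Aa kept its direction under all 17 alternatives. Where a call changed, the cause was not tested. Depth is unknown, and the values of Ciita, H2-Ob, H2-Oa and H2-DMb2 are low.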
